A study of Mus musculus with 12 samples.

Results

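The genes described here were 42 type I interferon-stimulated genes, taken from the mouse tumor expression table by their symbols. The rule used gene names and no measured value, though the list was drawn up with earlier results of these data known, and all 42 were found exactly once among the 55401 genes of the table. The tumors were 4T1 mammary carcinomas, a transplantable line of Balb/c origin, grown in the mammary fat tissue of Balb/c mice, and bulk RNA was sequenced from 12 of them. There were 4 groups of 3 tumors. One group received a control IgG. One received IL-10-Fc, the cytokine IL-10 joined to an antibody Fc part. One received aCSF1R, an antibody that blocks the macrophage growth factor receptor CSF1R. The last received BF10, the anti-CSF1R antibody carrying IL-10 as 1 fusion protein. Each library is named by its group and the replicate number in its label. The labels do not say whether the 3 tumors of a group came from separate experiments, so the p-values measure the spread between these tumors. Each tumor held carcinoma, stroma and immune cells together, so fewer cells of a type and less RNA per cell cannot be told apart in any value below.

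Type I interferons are cytokines made after cells sense foreign or misplaced nucleic acid. They bind the receptor chains IFNAR1 and IFNAR2, and the kinases JAK1 and TYK2 then activate transcription factors that bind the interferon-stimulated response element, or ISRE, in front of target genes. The targets include the sensors and transcription factors of the pathway itself, and proteins that block translation, degrade RNA or trap virus particles. In tumors these genes are read as a sign of interferon exposure of carcinoma or immune cells, and interferon-gamma switches on part of the same set.

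The ISRE can be read in front of several of the genes named in the comparisons below. In RefSeq promoters of build GRCm38.p6, the 250 bases before each annotated start were searched on both strands for the ISRE core, which is GAAA, any 2 bases and GAAA again. Of the 31 genes with a promoter in the table, 14 held at least 1 match, or 45.2%, and 3.46% of all 27025 genes in the table held one. The interferon-gamma-type core TTCNNNGAA was found in 4 of the 31, or 12.9%, against 8.13% of all genes. Neighbouring matches of the ISRE core can overlap, and a match is a description of the letters only. The stretches below, 60 bases each, are from genes named in the later comparisons. A link between these letters and any difference between groups was not tested. Capitals mark the ISRE core or its reverse complement, and each sequence is read on the strand of its gene.
Ifit3b, chr19:34607783-34607842, plus strand: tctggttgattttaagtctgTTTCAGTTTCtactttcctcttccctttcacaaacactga
Ifit3, chr19:34583387-34583446, plus strand: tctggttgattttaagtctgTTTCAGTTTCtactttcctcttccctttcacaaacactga
Ifit1, chr19:34640784-34640843, plus strand: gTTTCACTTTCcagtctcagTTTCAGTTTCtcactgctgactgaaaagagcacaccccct
Ddx60, chr8:61928027-61928086, plus strand: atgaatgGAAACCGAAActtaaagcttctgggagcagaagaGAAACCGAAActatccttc
Bst2, chr8:71537557-71537616, minus strand: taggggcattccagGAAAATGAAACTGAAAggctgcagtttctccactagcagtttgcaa
Isg15, chr4:156200845-156200904, minus strand: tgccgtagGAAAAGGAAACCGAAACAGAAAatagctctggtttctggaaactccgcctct
Oas3, chr5:120777695-120777754, minus strand: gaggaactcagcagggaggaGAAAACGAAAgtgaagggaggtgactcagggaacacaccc
The Ifit3 and Ifit3b stretches have the same letters throughout, and Isg15 holds 3 overlapping matches in a row. No match was found for 17 of the 31 genes, among them Irf7, Irf9 and Cmpk2. The promoters of 11 genes, among them Zbp1, Usp18 and Parp9, were not in the table.

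Levels are given in TPM, which is the deposited FPKM (read fragments per length of transcript and depth of library) rescaled to 1 common total in every library. From the steps between the lowest FPKM values the depth was estimated at 29.5 to 35.3 M reads per library. A gene was tested when it reached a TPM of 1 in at least 3 of the 12 libraries. In all, 15504 genes passed and all 42 interferon-stimulated genes were among them. The lowest estimate was 97 reads, for Slfn5 in aCSF1R replicate 8, and it was the only listed gene with an estimate under 100. By the sum of FPKM the tumors formed 2 sets of libraries, each with at least 1 tumor of every group. In 7 libraries the FPKM summed to 609695 to 648413, and in 5 to 782919 to 921581 (control IgG replicates 4 and 7, IL-10-Fc replicate 7, aCSF1R replicate 8 and BF10 replicate 6). They are called lower-sum and higher-sum libraries here. Since 2 of the 3 control tumors are higher-sum libraries and 1 of 3 in each other group, the counts and medians of the 42 genes against control are given without and with the library set as a term in the model. BF10 replicate 3 also stood apart, with neutrophil markers summing to 16498 TPM against 429 to 3346 in the other libraries.

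Bst2, or tetherin, which holds budding virus at the cell surface, had the highest median over the 12 libraries, 299 TPM, followed by the nucleic acid sensor Zbp1 with 128 TPM. The lowest was Rsad2, or viperin, which makes a chain-terminating nucleotide, with a median of 3.08 TPM. The genes lie on 15 chromosomes of build GRCm38, and 41 of them are annotated as protein coding, the exception being Mx2, a polymorphic pseudogene in this annotation. Family members often sit side by side: in 5 cases the next protein-coding gene by start position was another of the 42, as for Ifit2 and Ifit3 on chromosome 19 with 7112 bases between them and Rsad2 and Cmpk2 on chromosome 12 with 12752 bases between them. Ifit3 shared 61.8% of its stretches of 31 bases with Ifit3b, and Oas1a shared 68.7% with Oas1g, so the split of reads within each of these pairs is uncertain.

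**Figure D1:**
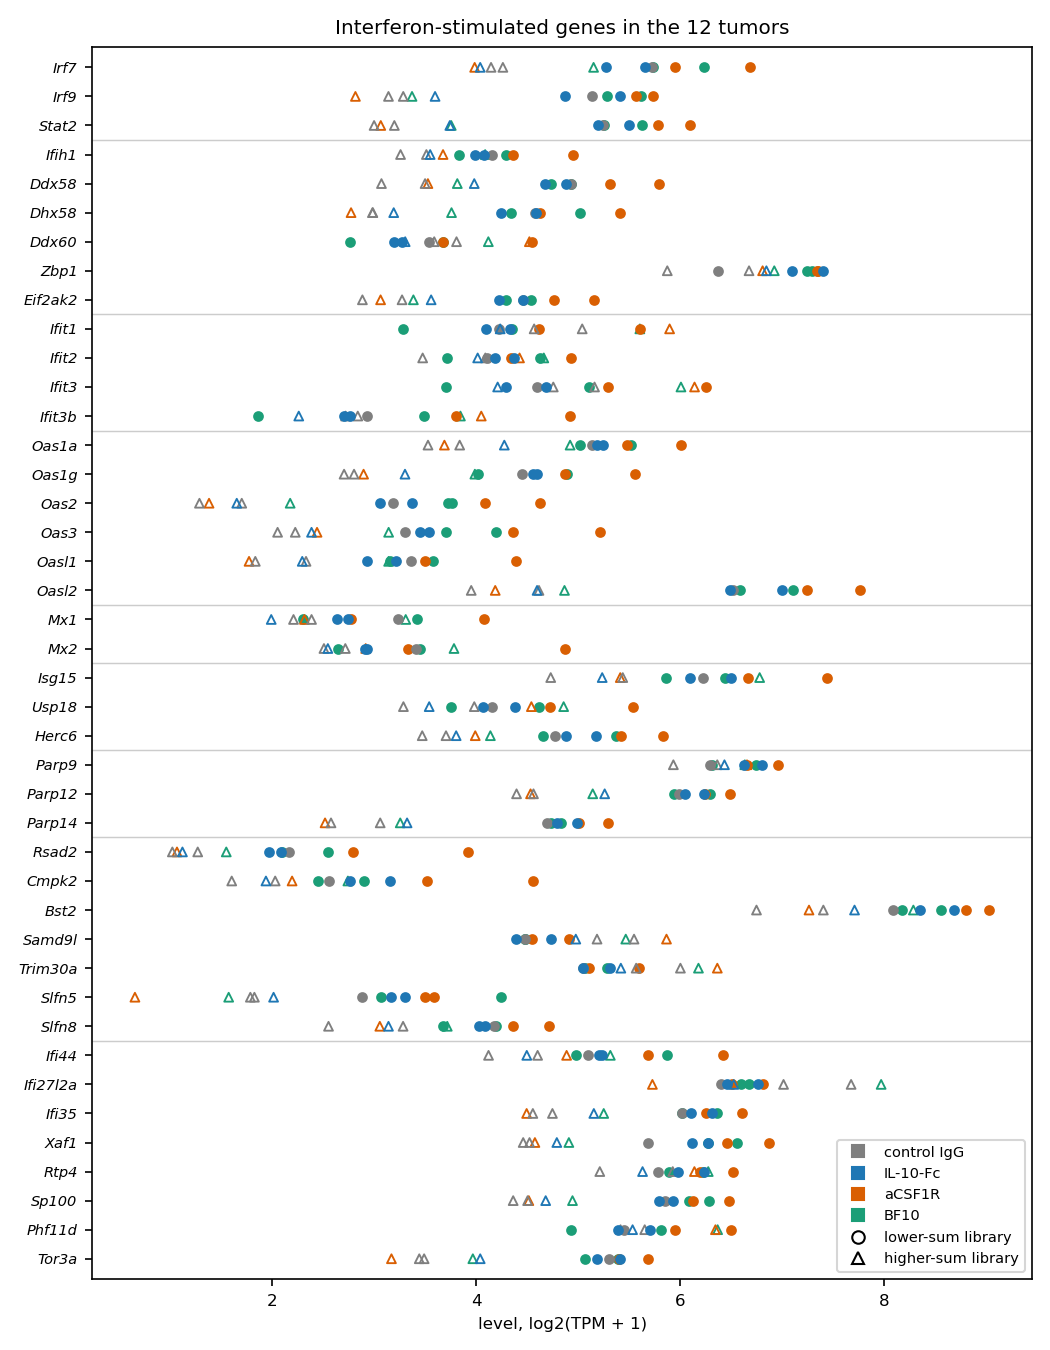
Level of each of the 42 genes on the x axis, as log2(TPM + 1), in the 12 tumors, with the genes in rows by role and groups in colors. Filled circles are the 7 lower-sum libraries and open triangles the 5 higher-sum libraries. The triangles lie left of every circle for 20 genes, such as Oasl2 and Stat2, and the orange circle of aCSF1R replicate 6 is the rightmost point for most genes.

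Most of these genes were lower in the higher-sum libraries, as were most of all genes tested. With the group held constant, 34 of the 42 were lower in the higher-sum libraries, and the median difference was -1.04 on the log2 scale against -0.68 for all genes tested. For 20 of the 42 every higher-sum library lay below every lower-sum library, which is about the share of all genes, 48.8%. Only Samd9l, among the 42, lay above without overlap, in a background of 6.23%. Oasl2 differed most, with a mean of 21.3 TPM in higher-sum and 129 TPM in lower-sum libraries. Samd9l had a mean of 42.4 TPM in higher-sum and 23 TPM in lower-sum libraries. The 8 genes with the opposite difference were Ddx60, Ifit1, Ifit3, Ifit3b, Samd9l, Trim30a, Ifi27l2a and Phf11d. The median GC content of their principal transcripts was 42.7%, and that of the other 34 genes was 49.95%. Across the 42 genes the Pearson correlation of GC content with the difference was -0.43, and that of log2 transcript length was -0.17. These correlations are across genes of the same 12 libraries and carry no p-value.

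**Figure D2:**
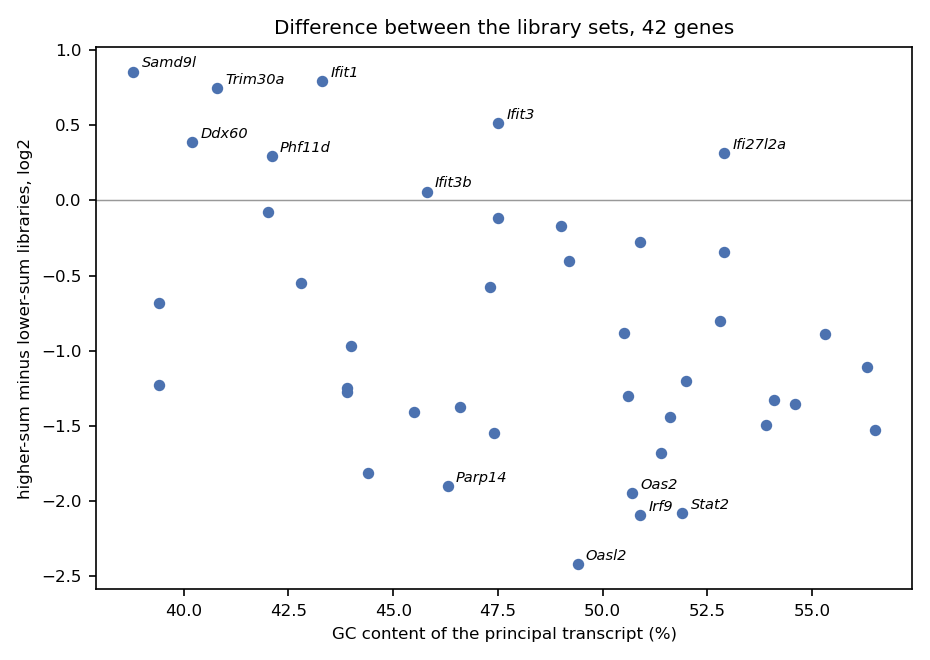
GC content of the principal transcript of each of the 42 genes in percent, on the x axis, against the difference between higher-sum and lower-sum libraries with the group held constant, in log2 units, on the y axis. The 8 genes above 0 are labelled, as are the 5 with the most negative differences, of which Oasl2 is the lowest.

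The first question was whether any treatment moved these genes away from control. No gene of the 42 passed the test in any of 8 comparisons (limma, Benjamini-Hochberg adjusted p below 0.05 over all 15504 genes and a difference of at least 1.5-fold). The smallest adjusted p among them was 0.439, for Ifit3b in IL-10-Fc against aCSF1R. With the library set as a term no gene of the 42 passed either, and the smallest limma adjusted p was 0.109, for Zbp1 in aCSF1R against control. What follows describes the sizes of the differences, their spread and their counts at an unadjusted p below 0.05, each beside the share of all genes.

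Against control, the aCSF1R tumors had the largest median difference of the 3 treated groups when all libraries were used. Of the 42 genes, 41 were higher on average in aCSF1R, and the median difference was 0.83 on the log2 scale. All genes tested had a median of 0.24, so the median of the 42 exceeded it by 0.59. The groups did not overlap for 8 genes, all higher in aCSF1R, in a background of 1.61% of all genes, namely Zbp1, Ifit2, Ifit3, Ifit3b, Usp18, Parp9, Rtp4 and Phf11d. Higher at an unadjusted limma p below 0.05 were 9 genes (Zbp1, Ifit3b, Usp18, Parp9, Rtp4, Ifi44, Cmpk2, Phf11d and Oas3), in a background of 0.903%, and 0 were lower. After adjustment 0 of the 42 were called. Of all genes 0.568% were, with 0 genes higher and 88 lower in aCSF1R. The fit with the library set as a term had 40 of 42 higher with a median of 0.56 against 0.01 for all genes. In it 16 genes had an unadjusted limma p below 0.05 in a background of 1.9%. None of the 42 was called where 2.01% of all genes were, with 12 genes higher and 300 lower in aCSF1R. Within the lower-sum libraries, all 42 were higher in the 2 aCSF1R libraries than in the 1 control library. The median there was 0.61, against 0.02 for all genes. Within the higher-sum libraries, 28 were higher and 14 lower in the 1 aCSF1R library than in the 2 control libraries. The median there was 0.16, against -0.16 for all genes. Among the genes higher within both sets were the 4 Ifit genes, Ddx60, Usp18, Zbp1, Rtp4, Parp9 and Phf11d. A single tumor carried much of the size: aCSF1R replicate 6 was the highest of 12 libraries for 36 genes. Without it the median of the 42 was 0.46 against 0.06 for all genes. This median was below the 0.73 of BF10 and the 0.49 of IL-10-Fc, where all genes had 0.32 and 0.35. Within the higher-sum libraries the order of the medians was likewise different, at 0.16 in aCSF1R, 0.21 in IL-10-Fc and 0.69 in BF10. All genes there had -0.16, 0.33 and 0.18, so only the IL-10-Fc median lay below that of all genes.

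**Figure D3:**
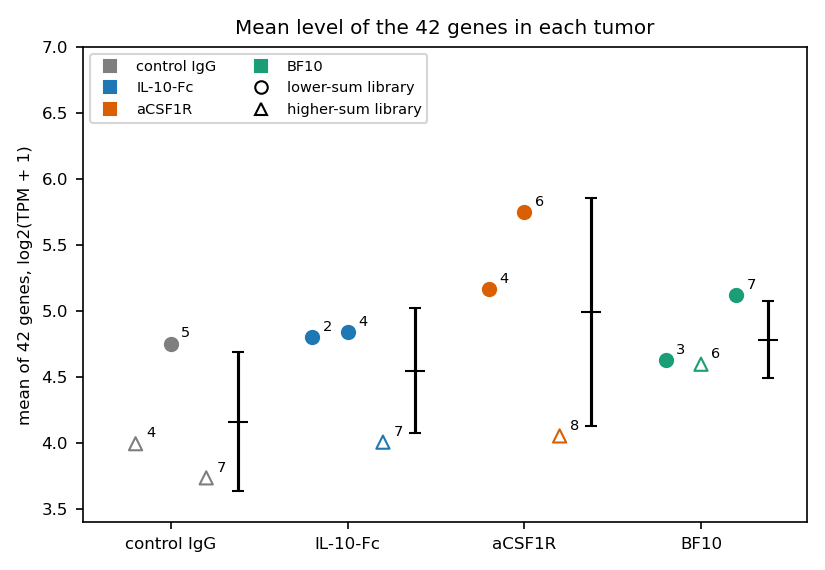
Mean of the 42 genes in each tumor, as log2(TPM + 1), on the y axis, by group on the x axis. Numbers are replicate numbers, filled circles lower-sum and open triangles higher-sum libraries, and the bars give the group mean and SD of 3 tumors. The means are 4.16 ± 0.53 for control IgG, 4.55 ± 0.47 for IL-10-Fc, 4.99 ± 0.86 for aCSF1R and 4.78 ± 0.29 for BF10, and every triangle lies below every circle of its own group.

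BF10 tumors were also higher than control for most of the genes, by different amounts in the library sets. Of the 42 genes, 38 were higher in BF10 with a median of 0.73, against 0.32 for all genes tested. The groups did not overlap for 2 genes, Zbp1 and Bst2, both higher in BF10, in a background of 2.36%. Zbp1 was the 1 gene higher at an unadjusted limma p below 0.05, in a background of 0.987%, 0 were lower, and 0 were called in a background of 0%. When the library set was a term all 42 were higher with a median of 0.33 against 0.07 for all genes, 3 genes (Zbp1, Xaf1 and Sp100) had an unadjusted limma p below 0.05 in a background of 2.52%, and 0 were called in a background of 0.00645%. Within the lower-sum libraries alone 28 were higher and 14 lower, with a median of 0.12 against -0.05 for all genes. Within the higher-sum libraries 41 were higher, with a median of 0.69 against 0.18 for all genes.

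IL-10-Fc tumors were close to the shift of all genes. Of the 42, 33 were higher than in control with a median of 0.49, against 0.35 for all genes, and 25 of the 42 lay above that all-gene median. Zbp1 and Parp9 did not overlap with control and were higher, in a background of 4.75%, and Ddx60 did not overlap and was lower, in a background of 1.78%. Again Zbp1 was the 1 gene higher at an unadjusted limma p below 0.05, in a background of 1.03%, 0 were lower, and 0 were called in a background of 0.00645%. Once the library set was a term the median was 0.13 against 0.10 for all genes, 2 genes (Zbp1 and Parp9) had an unadjusted limma p below 0.05 in a background of 2.85%, and 0 were called in a background of 0.0258%. With median-of-ratios scaling 23 of the 42 were higher and 19 lower than in control.

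**Figure D4:**
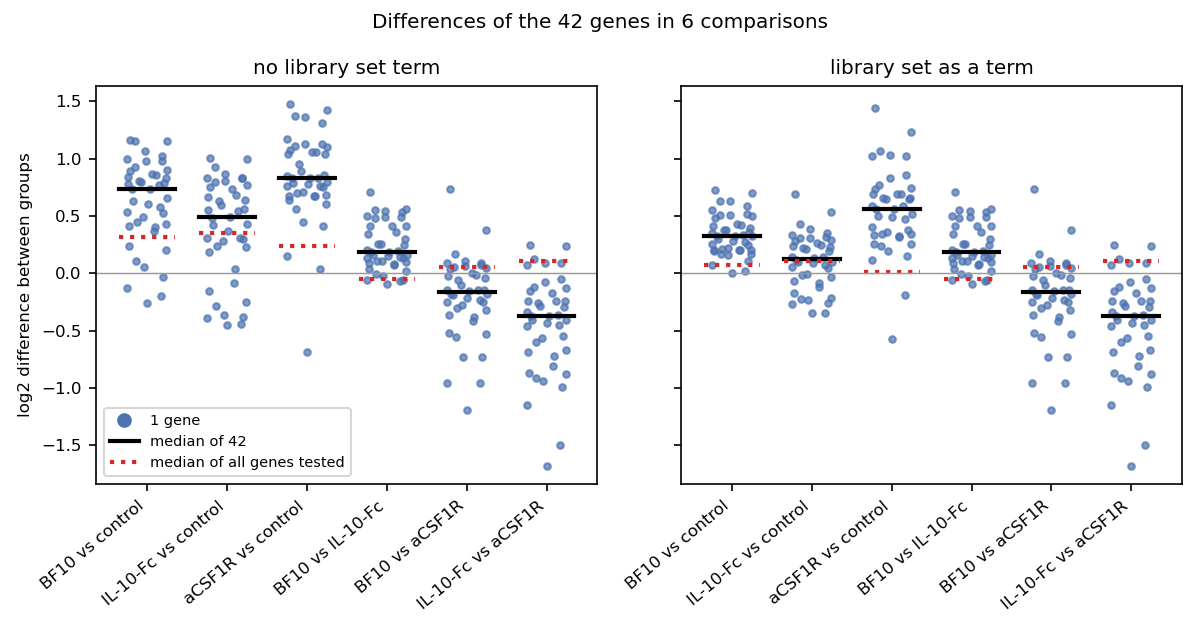
Difference of each of the 42 genes in log2(TPM + 1) on the y axis, in the 6 comparisons of 2 groups on the x axis, without a library set term on the left and with it on the right. Each point is 1 gene, the black line the median of the 42 and the dotted red line the median of all genes tested. The median of the 42 lies above the all-gene median in the comparison of aCSF1R with control, 0.83 against 0.24, and below it in that of IL-10-Fc with aCSF1R, -0.37 against 0.11.

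The treatments were also compared with each other. The comparisons share groups, so their values are not independent. In IL-10-Fc, 36 of the 42 genes were lower than in aCSF1R, with a median of -0.37 where all genes had 0.11. For 6 genes the groups did not overlap, all lower in IL-10-Fc, in a background of 1.6%: Ddx60, Ifit1, Ifit3, Ifit3b, Usp18 and Phf11d. Lower at an unadjusted limma p below 0.05 were 4 genes (Ddx60, Ifit3, Ifit3b and Usp18), in a background of 0.387%, and 0 were higher. None was called, in a background of 0.542%, with 84 genes higher and 0 lower in IL-10-Fc. The set term raised the 4 genes to 9 lower at an unadjusted limma p below 0.05, in a background of 1.31%. With the term 0 were called in a background of 2.13%, with 328 genes higher and 2 lower in IL-10-Fc. Without aCSF1R replicate 6, 21 of the 42 were lower and 21 higher, with a median of 0.00 against 0.30 for all genes. Within the lower-sum libraries, 42 of 42 were lower in IL-10-Fc, with a median of -0.61 against -0.09 for all genes. Within the higher-sum libraries, with 1 tumor on each side, 19 were lower and 23 higher. The median there was 0.05, against 0.52 for all genes.

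BF10 was next compared with aCSF1R, the antibody it contains. In BF10, 30 of the 42 were lower than in aCSF1R, with a median of -0.17 against 0.06 for all genes, and 0 genes were without overlap. At an unadjusted limma p below 0.05, 1 gene (Ifit3b) was lower in a background of 0.561%, and 4 (Ddx60, Ifit1, Ifit3 and Ifit3b) with the library set as a term in a background of 2.63%. None of the 42 was called, in backgrounds of 0.735% without and 2.82% with the term. Without the term 114 genes were called higher in BF10 and 0 lower, and with it 429 and 8. Without aCSF1R replicate 6 the median was 0.22 against 0.25 for all genes. The library sets went opposite ways. Within the lower-sum libraries 41 of 42 were lower in BF10, with a median of -0.56 against -0.09 for all genes. Within the higher-sum libraries, with 1 tumor on each side, 35 of 42 were higher, with a median of 0.55 against 0.35 for all genes.

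BF10 and IL-10-Fc are the groups that share IL-10. In BF10, 36 of the 42 were higher than in IL-10-Fc, with a median of 0.18 against -0.05 for all genes. At an unadjusted limma p below 0.05, 0 genes differed without the set term and 1 (Irf7, higher in BF10) with it, in a background of 0.374%, and 0 were called in a background of 0% with or without the term. Within the lower-sum libraries 21 were higher and 21 lower, with a median of 0.01 against 0.005 for all genes. Within the higher-sum libraries, with 1 tumor on each side, 35 were higher and 7 lower. The median there was 0.58, against -0.14 for all genes. Without IL-10-Fc replicate 7 the median was -0.02 against -0.18 for all genes.

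BF10 carries both parts, so the sum of the effects of its parts was compared with its own. The contrast between them, in which the differences of aCSF1R and of IL-10-Fc from control are both taken from that of BF10, was negative for 38 of the 42, with a median of -0.64 against -0.28 for all genes, and -0.37 with the set term. Its direction turned between the library sets, with 42 of 42 negative in the lower-sum libraries (median -0.60) and 34 of 42 positive in the higher-sum libraries (median 0.29). At an unadjusted limma p below 0.05, Zbp1 alone was negative, in a background of 0.522%, and with the library set as a term Zbp1 and Parp9 were, in a background of 1.41%. None was called, in backgrounds of 0.29% without and 1.21% with the term. Without the term 44 genes were called positive and 1 negative, and with it 185 and 3. The 2 groups with IL-10 were compared with the 2 without it as well. The median of the 42 was 0.14 against 0.22 for all genes, with 29 higher and 13 lower. The sign of this median depended on the fit, the scaling and the libraries used. The median was -0.02 with the set term (20 higher and 22 lower) and -0.12 with median-of-ratios scaling (16 and 26). All genes had 0.09 and -0.01 in these fits. In the lower-sum libraries alone the median of the 42 was -0.25 (6 and 36), against -0.07 for all genes. In the higher-sum libraries it was 0.40, against 0.35 for all genes, with 36 higher and 6 lower. None was called in backgrounds of 0.142% without and 1.39% with the term.

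Among transcription factors, Irf7 drives interferon-alpha genes and Irf9 and Stat2 are parts of the ISRE-binding complex. All 3 were low in every higher-sum library. Irf7 ranged from 14.8 to 34.5 TPM in the higher-sum libraries and was 101.8 TPM in aCSF1R replicate 6. Their differences from control on the log2 scale were 0.83 to 1.17 in aCSF1R, 0.15 to 0.48 with the set term. For BF10 the ranges were 0.90 to 1.07 and 0.20 to 0.48, and for IL-10-Fc 0.28 to 1.00 and -0.23 to 0.31.

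Among the sensors and kinases, Zbp1, which binds Z-form nucleic acid and can start necroptosis, differed from control by similar amounts in the 3 treated groups. It measured 101.1, 81.8 and 57.6 TPM in control IgG replicates 4, 5 and 7. It measured 136, 167 and 114 TPM in IL-10-Fc replicates 2, 4 and 7, and 161, 162 and 111 TPM in aCSF1R replicates 4, 6 and 8. In BF10 replicates 3, 6 and 7 it measured 155, 120.2 and 149.9 TPM. Every one of the 9 treated tumors lay above every control tumor, which held for Zbp1 alone among the 42 and for 0.245% of all genes. This pattern was picked out after its values were seen. Minus control, Zbp1 was 0.86 for aCSF1R, 0.84 for BF10 and 0.81 for IL-10-Fc, each with an SE of 0.26 on the log2 scale, with limma adjusted p of 0.519, 0.788 and 0.738. Without control IgG replicate 4 and with the library set as a term, the difference in aCSF1R was 0.97 with an SE of 0.14 and a limma adjusted p of 0.00581, a call made by 0.135% of all genes in that direction.

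Ddx60, a helicase linked to the RNA sensor RIG-I, had a different order of groups. It measured 13, 10.6 and 11 TPM in control IgG replicates 4, 5 and 7, and 8.17, 8.67 and 8.88 TPM in IL-10-Fc replicates 2, 4 and 7. It measured 11.8, 22.4 and 22.0 TPM in aCSF1R replicates 4, 6 and 8, and 5.77, 16.4 and 11.7 TPM in BF10 replicates 3, 6 and 7. All IL-10-Fc tumors lay below all control and all aCSF1R tumors, and BF10 overlapped every group. IL-10-Fc minus aCSF1R was -0.99 with an SE of 0.37 (limma adjusted p = 0.968). The other sensors were Ifih1, Ddx58 (RIG-I itself), Dhx58 and the translation-blocking kinase Eif2ak2. In aCSF1R they were higher than control by 0.68 to 1.04, or by 0.26 to 0.59 with the set term, and none passed the test. In IL-10-Fc they were higher by 0.23 to 0.68, but by -0.00 to 0.22 with the set term, and all 4 were lower than control within the lower-sum libraries, by -0.12 to -0.16.

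The Ifit proteins bind foreign RNA and block its translation, and 2 of its 4 genes had the smallest unadjusted p of the comparison of IL-10-Fc with aCSF1R. Ifit3b measured 6.16, 6.64 and 5.59 TPM in control IgG replicates 4, 5 and 7, and 5.79, 5.54 and 3.79 TPM in IL-10-Fc replicates 2, 4 and 7. It measured 12.9, 29.2 and 15.6 TPM in aCSF1R replicates 4, 6 and 8, and 2.63, 13.4 and 10.2 TPM in BF10 replicates 3, 6 and 7. All aCSF1R tumors lay above all control and all IL-10-Fc tumors, whereas BF10 replicate 3 was the lowest of all 12 and the other BF10 tumors were above control. The means were 6.13 ± 0.53 TPM in control, 19.2 ± 8.7 in aCSF1R, 5.04 ± 1.09 in IL-10-Fc and 8.75 ± 5.53 in BF10 (SD, n = 3). On the log2 scale aCSF1R minus control was 1.42 with an SE of 0.49 (limma adjusted p = 0.736), and IL-10-Fc minus aCSF1R was -1.68 with the same SE (limma adjusted p = 0.439).

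Ifit3 followed the same order. It measured 34.7, 23.2 and 26.0 TPM in control IgG replicates 4, 5 and 7, and 18.6, 24.8 and 17.5 TPM in IL-10-Fc replicates 2, 4 and 7. It measured 38, 75.4 and 69.5 TPM in aCSF1R replicates 4, 6 and 8, and 12.1, 63.3 and 33.4 TPM in BF10 replicates 3, 6 and 7. Again the aCSF1R tumors were above all control and IL-10-Fc tumors. IL-10-Fc minus aCSF1R was -1.50 with an SE of 0.50 (limma adjusted p = 0.705). Across the 4 family members aCSF1R minus control was 0.68 to 1.42, while BF10 minus control was -0.20 to 0.45 and IL-10-Fc minus control was -0.44 to 0.30. The direction in aCSF1R was the same under every scaling tried for all 4 genes. That in BF10 was not, with 3 of 4 higher under TPM and 1 of 4 under median-of-ratios scaling.

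These calls turned on single libraries. With the library set as a term and BF10 replicate 3 left out, Ifit3b was called higher in aCSF1R than in control (1.36, SE 0.28, limma adjusted p = 0.0332), in a background of 0.0774% of genes called higher. In the same fit Ifit3b, Ifit3 and Ddx60 were called lower in IL-10-Fc than in aCSF1R, by -1.68, -1.50 and -0.99 with limma adjusted p of 0.00774, 0.0194 and 0.0457, in a background of 0.0516% of genes called lower. BF10 replicate 3 enters these comparisons through the shared spread and the library set term. With aCSF1R replicate 8 left out instead, Oas2 and Oas3 were called in both comparisons and the Ifit genes were not.

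The Oas enzymes make oligoadenylates that activate RNase L, and Oasl1 restrains Irf7. Oasl2 had the highest level of the family. It measured 23.5, 90.6 and 14.5 TPM in control IgG replicates 4, 5 and 7, and 127, 88.9 and 23.2 TPM in IL-10-Fc replicates 2, 4 and 7. It measured 151, 216 and 17.2 TPM in aCSF1R replicates 4, 6 and 8, and 95, 28.1 and 137 TPM in BF10 replicates 3, 6 and 7. The groups overlapped widely, since each holds a higher-sum library with a low value. All 6 genes were higher than control in aCSF1R (0.71 to 1.48), in BF10 (0.78 to 1.16) and in IL-10-Fc (0.31 to 1.00). With the set term these ranges were 0.34 to 1.02, 0.35 to 0.70 and -0.06 to 0.35. For Oasl2 the aCSF1R difference was 1.37 with an SE of 1.04, and 0.56 with an SE of 0.32 with the set term. Oas3 measured 3.15, 8.88 and 3.68 TPM in control IgG replicates 4, 5 and 7 and 19.6, 36.0 and 4.43 TPM in aCSF1R replicates 4, 6 and 8. With the library set as a term and aCSF1R replicate 8 left out, Oas3 was higher in aCSF1R than control by 1.57 (SE 0.29, limma adjusted p = 0.0294) and Oas2 by 1.23 (SE 0.24, limma adjusted p = 0.0404), in a background of 0.0967%. In that fit they were lower in IL-10-Fc than in aCSF1R by -1.32 and -1.13 (limma adjusted p of 0.0393 and 0.0345), in a background of 0.0387%. Oas2 and Oas3 were added to the genes given by library after their values were seen.

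The Mx proteins are dynamin-like GTPases that trap viral nucleoprotein. Mx1 measured 4.23, 8.43 and 3.63 TPM in control IgG replicates 4, 5 and 7, and 5.70, 5.20 and 2.98 TPM in IL-10-Fc replicates 2, 4 and 7. It measured 5.82, 15.9 and 3.98 TPM in aCSF1R replicates 4, 6 and 8, and 3.94, 8.91 and 9.69 TPM in BF10 replicates 3, 6 and 7. All 4 groups overlapped. BF10 minus IL-10-Fc was 0.55 with an SE of 0.51 (limma adjusted p = 1).

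Isg15 is a ubiquitin-like protein, Herc6 a mouse ligase that attaches it, and Usp18 the protease that removes it and also dampens the interferon receptor. Usp18 measured 14.8, 16.8 and 8.76 TPM in control IgG replicates 4, 5 and 7, and 15.8, 19.8 and 10.6 TPM in IL-10-Fc replicates 2, 4 and 7. It measured 25.3, 45.3 and 22.3 TPM in aCSF1R replicates 4, 6 and 8, and 12.5, 28.0 and 23.5 TPM in BF10 replicates 3, 6 and 7. The aCSF1R tumors were above all control and IL-10-Fc tumors in both library sets. The difference from control was 1.12 with an SE of 0.40 (limma adjusted p = 0.845). Isg15 and Herc6 differed by 1.04 and 1.099, and their groups overlapped.

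The Parp genes encode mono-ADP-ribosyl transferases or their partners, some of which restrict virus growth. Parp9 measured 81.3, 77.2 and 60.1 TPM in control IgG replicates 4, 5 and 7, and 97.9, 111 and 85.4 TPM in IL-10-Fc replicates 2, 4 and 7. It measured 99.8, 123 and 99.7 TPM in aCSF1R replicates 4, 6 and 8, and 78.6, 98.2 and 106 TPM in BF10 replicates 3, 6 and 7. Both the IL-10-Fc and the aCSF1R tumors lay above all control tumors, by 0.43 and 0.56 with an SE of 0.21 (limma adjusted p of 0.738 and 0.893). Under median-of-ratios scaling the first of these differences was -0.01. Parp9 depended little on the library set, with a difference of -0.12, while Parp12 and Parp14 differed by -1.30 and -1.90.

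**Figure D5:**
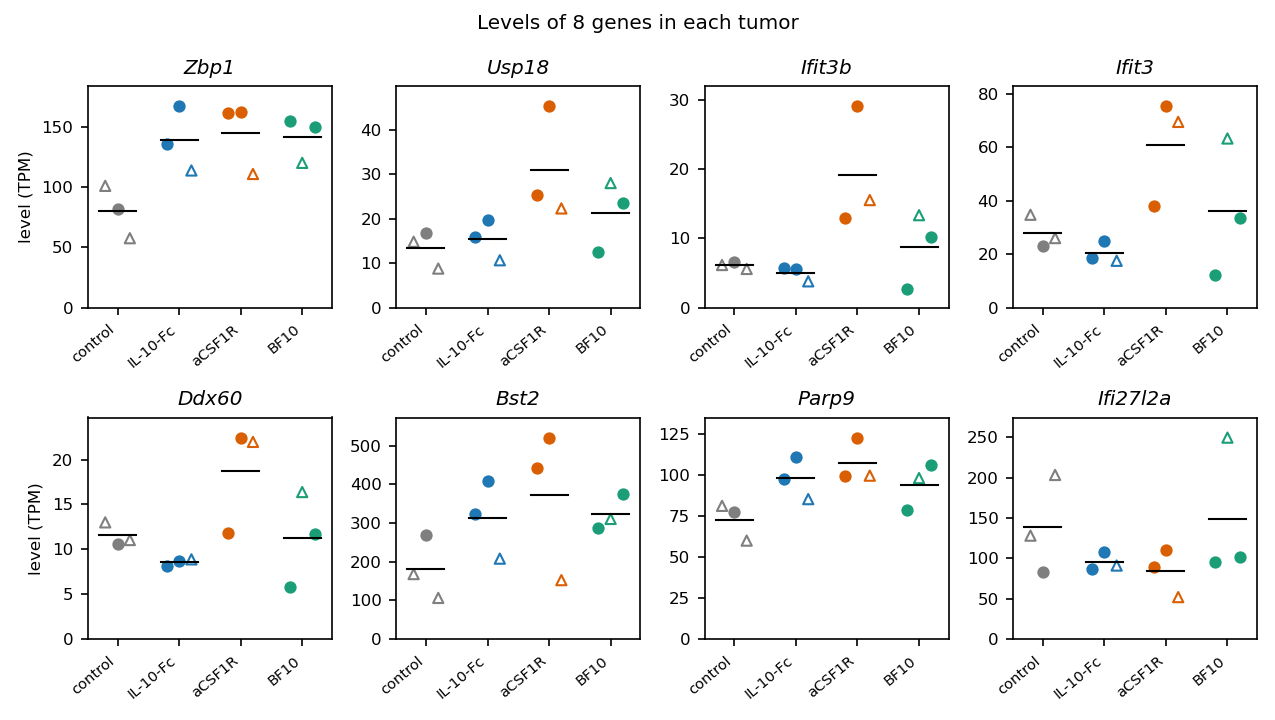
Level in TPM on the y axis of 8 genes in each tumor, by group on the x axis. Filled circles are lower-sum and open triangles higher-sum libraries, and the black line is the mean of 3 tumors. The control tumors lie below all others for Zbp1, the aCSF1R tumors lie above all control tumors for Usp18, Ifit3b and Ifit3, and the 2 highest Ifi27l2a values are higher-sum libraries.

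Among the effectors, Bst2 was the highest gene. It measured 168, 270.2 and 106 TPM in control IgG replicates 4, 5 and 7, and 324, 409 and 208 TPM in IL-10-Fc replicates 2, 4 and 7. It measured 444, 521 and 152 TPM in aCSF1R replicates 4, 6 and 8, and 287, 311 and 374 TPM in BF10 replicates 3, 6 and 7. All BF10 tumors lay above all control tumors, and the other treated groups overlapped with control. BF10 minus control was 0.92 with an SE of 0.48 (limma adjusted p = 0.788). The low genes Rsad2 and Cmpk2, a mitochondrial nucleotide kinase next to it, were 1.11 and 1.36 higher in aCSF1R than in control, and both were highest in aCSF1R replicate 6, at 14.1 and 22.5 TPM. Slfn8 differed from control by 0.70 in aCSF1R. Slfn5 differed by 0.42, but by -0.19 with the set term, and its sign was opposite within the lower-sum (0.66) and higher-sum (-1.15) libraries. Samd9l and Trim30a differed by 0.04 and 0.15.

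Of the 8 other genes, Ifi44, Xaf1, Rtp4, Sp100, Phf11d, Ifi35 and Tor3a were higher than control in aCSF1R by 0.64 to 1.08, or by 0.11 to 0.86 with the set term. Rtp4, a receptor transport protein, measured 59.8, 54.1 and 36.0 TPM in control IgG replicates 4, 5 and 7, and 61.9, 74.4 and 48.5 TPM in IL-10-Fc replicates 2, 4 and 7. It measured 72, 90.8 and 69.5 TPM in aCSF1R replicates 4, 6 and 8, and 58.2, 76.4 and 73.9 TPM in BF10 replicates 3, 6 and 7. The aCSF1R tumors were above all control tumors, by 0.64 with an SE of 0.26 (limma adjusted p = 0.893), and BF10 overlapped with control by 1 tumor.

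Ifi27l2a, a mitochondrial protein, was the exception. It measured 128, 83.5 and 203 TPM in control IgG replicates 4, 5 and 7, and 86.8, 107 and 91.1 TPM in IL-10-Fc replicates 2, 4 and 7. It measured 89.8, 111 and 52.0 TPM in aCSF1R replicates 4, 6 and 8, and 95.9, 249 and 101.2 TPM in BF10 replicates 3, 6 and 7. It was the 1 gene of the 42 lower in aCSF1R than in control, by -0.68 with an SE of 0.43 (limma adjusted p = 0.893). That difference had opposite signs in the 2 library sets, at 0.25 in lower-sum and -1.62 in higher-sum libraries.

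The genes upstream of the 42 were examined next. Of 19 interferon ligand genes in the table, none passed the filter on low levels. Interferon-beta, Ifnb1, had its highest level, 0.37 TPM, in replicate 6 of BF10 and a listed level of 0 in 3 libraries. Of 22 genes of the receptors, kinases, sensors and adaptors, 15 were higher and 7 lower than control in aCSF1R. In BF10 21 were higher and 1 lower, likewise in IL-10-Fc, and none of the 22 was called without the set term. Of all genes tested, 73.5% were higher than control in aCSF1R, 77.4% in BF10 and 79.7% in IL-10-Fc. With the term the direction in aCSF1R turned, to 7 higher and 15 lower (median 0.22 without and -0.17 with it). BF10 then had 15 higher and 7 lower (median 0.56 and 0.10). All genes had medians without and with the term of 0.24 and 0.01 in aCSF1R and of 0.32 and 0.07 in BF10. Ifnar1 and Ifnar2, the receptor chains, differed from control by 0.61 and 0.19 in aCSF1R and by 0.77 and 0.47 in BF10, and with the set term by -0.17 and 0.00 and by -0.01 and 0.29. Tlr7, Tlr9 and Irf5, which macrophages or plasmacytoid dendritic cells are known to express, were the 3 genes of this list called in any of the 8 comparisons with the set term. Tlr7 in aCSF1R differed from control by -1.73 without it (limma adjusted p = 0.104) and by -1.56 with it (limma adjusted p = 0.0126). With the set term Tlr7, Irf5 and Tlr9 were higher in BF10 than in aCSF1R by 1.64, 1.33 and 0.91 (limma adjusted p of 0.00574, 0.00342 and 0.0232). With it Irf5 was also lower in aCSF1R than in control by -0.96 (limma adjusted p = 0.0419). Of all genes, 2.82% were called with the term in BF10 against aCSF1R and 2.01% in aCSF1R against control.

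Interferon-gamma genes were compared because many of them answer to both interferons. All 15 were higher than control in BF10, with a median of 0.91, and again in the IL-10-Fc tumors, with a median of 0.94. In aCSF1R 14 of 15 were, with a median of 0.72. The medians of the 42 in the same comparisons were 0.73, 0.49 and 0.83, and those of all genes 0.32, 0.35 and 0.24. With the set term the interferon-gamma medians were 0.62, 0.56 and 0.60 and those of the 42 were 0.33, 0.13 and 0.56. These lists hold different genes, and the difference between them was not tested. Ifng itself averaged 1.01 ± 0.38 TPM in control, 1.58 ± 0.12 in aCSF1R, 2.27 ± 0.78 in BF10 and 1.96 ± 0.52 in IL-10-Fc (SD, n = 3). Gbp5 and Gbp4, guanylate-binding GTPases, had the smallest unadjusted p of this list. Gbp5 was 1.27 higher in BF10 than in control with an SE of 0.25 (limma adjusted p = 0.788), and with the set term 1.13 higher (limma adjusted p = 0.0594). With that term 2.01% of all genes were called in aCSF1R against control, 12 of them higher and 300 lower. Of the list 3 genes were called, all higher. They were Gbp5, Gbp3 and Igtp (0.82, 0.84 and 0.72, limma adjusted p of 0.0109, 0.0214 and 0.0318). In IL-10-Fc 1 was called (Gbp5, 1.07, limma adjusted p = 0.0473), in a background of 0.0258%, with 3 genes higher and 1 lower. In BF10 0 were called, in a background of 0.00645%. Gbp4 was 1.279 higher in IL-10-Fc than in control with an SE of 0.29 (limma adjusted p = 0.738).

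Cell type markers moved with the groups too. The summed level of 10 macrophage markers was 88.7 to 276 TPM in the aCSF1R tumors and 1545 to 2297 TPM in all others, with all 10 lower than in control and 6 called. None of them was at 0. Over the same tumors the 42 genes summed to 1229 to 3117 TPM in aCSF1R and 947 to 2199 TPM in the others. The 6 epithelial markers summed to 752 to 1682 TPM in higher-sum and 1860 to 2567 TPM in lower-sum libraries. The plasmacytoid dendritic cell markers other than Tcf4 stayed at or below 2.51 TPM, and Tcf4 followed the library set. The 5 monocyte markers summed to 89.6 to 181 TPM in aCSF1R and 126 to 489 TPM in the others. All 5 were lower in aCSF1R than in control, 3 of 5 with the set term, and Ccr2, a chemokine receptor, was called (9.23 to 13.8 TPM against 35.9 to 88.2 TPM in the others, limma adjusted p = 0.00137). The T cell markers summed to 12.9 to 54.2 TPM and the natural killer cell markers to 12.2 to 33.8 TPM over all 12 libraries. The part of these cell types in the differences of the 42 genes was not tested.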

How the data were processed

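Total RNA of the 12 tumors was sequenced after TruSeq Stranded mRNA preparation. The authors deposited FPKM values per gene with 2 decimals; STAR 2.7.5a and RSEM 1.3.3 are named in the submitters' processing notes, with mouse build GRCm38 (mm10). FPKM were rescaled to TPM, a gene was kept when 3 or more libraries reached a TPM of 1, and log2(TPM + 1) was fitted with limma 3.58.1 (R 4.3.3), trended empirical Bayes, 1 mean per group over all 12 libraries. Fold changes are on this log2 scale, which understates changes of low genes. P-values were Benjamini-Hochberg adjusted over all genes tested, and a call needed an adjusted p below 0.05 and 1.5-fold. The scripts were tested on simulated data.

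The 42 genes and the other lists were chosen with earlier results of these data known. Levels in every library are given for the 3 genes of smallest unadjusted p in each comparison of 2 groups, genes called with or without the library set, and the 5 of highest median. The library set was divided at an FPKM sum of 700000. Estimated depth came from FPKM steps, with 79.8 to 82.6% of low values within 0.2 of whole reads. The authors' 4 DESeq2 1.28.0 tables hold only their own comparisons and were not used. Alternatives were other scalings, a pseudocount of 0.1, no filter, no fold minimum, the library set as a term, a replicate block, and each library left out. The lower-sum libraries alone, and the set term with each library left out, were added after seeing the data. RefSeq promoters (GRCm38.p6) gave the sequences, and gene positions and transcripts came from GENCODE M21 on GRCm38. The values of 1 gene of the pathway list are not reported here.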

Additional observations from a re-analysis of the deposited data

How the results depend on the processing

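Each count was recomputed under 32 alternatives, of which 19 were planned and 13 were added after seeing the data, and each median under the same ones except that with no fold minimum. Of the counts of called genes 251 stayed at 0 and 5 did not. The exceptions came from the set term with 1 library left out: in aCSF1R against control 1 gene when BF10 replicate 3 was left out, 2 when aCSF1R replicate 8 was and 1 when control IgG replicate 4 was (range 0 to 2), and in IL-10-Fc against aCSF1R 3 without BF10 replicate 3 and 2 without aCSF1R replicate 8 (range 0 to 3). The cause was not tested. The median difference moved by more than the spread between replicates in 6 cases and by less in 242. For BF10 against control it was 0.023 with the set term and without BF10 replicate 6, and 0.12 in the lower-sum libraries alone. For aCSF1R against control, with 1 library left out and no set term, it ranged from 0.46 without aCSF1R replicate 6 to 1.43 without aCSF1R replicate 8. With the set term and without aCSF1R replicate 6 it was lower, at 0.31 against -0.05 for all genes.

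With the replicate block, which left 2 residual degrees of freedom, the median was 1.83 for aCSF1R against control, -1.04 for IL-10-Fc against aCSF1R and -1.32 for the non-additive contrast, and 0 genes of the 42 were called. The deviations of same-numbered libraries correlated from -0.66 to 0.42 over 7 pairs, so the numbers were not taken to pair the tumors. Of the 576 values of single genes 569 kept their sign and their side of the threshold, 5 became calls and 0 were called in the opposite direction. The size of a shift was set against the SE only where the sign turned. The sign turned in 2, Ifit3 in BF10 against IL-10-Fc (-0.08, lower-sum libraries alone) and Parp9 in IL-10-Fc against control (-0.01, median of ratios). Each gene had an estimated 97 reads or more in every library.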
